A study of Mus musculus with 83 samples.

Results

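The C/D box small nucleolar RNA (snoRNA) fragments described here are the rows of the deposited small RNA table whose name begins with Snord, in any case, and that reached at least 10 RPM (a row's reads as a share of its library's reads, scaled so that the library sums to 1e6) in at least 3 of 36 embryonic stem cell (ESC) libraries. Of 347 such rows, 19 SNORD113 copies on chromosome 12 were set aside, 203 stayed below the level and 125 were members, out of 32101 features in the table. The measured level chose the members, so their presence in these libraries is a description. The 125 rows carry 107 names, because 14 names occur in several copies, and copies are kept apart here by their start position.

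The study followed ESCs after loss of Dnmt1, the maintenance DNA methyltransferase. All ESC groups came from a line with floxed Dnmt1 alleles (Dnmt1 loxP/loxP, labelled as E14 background but given as strain C57BL/6 in the methods of the study), in which tamoxifen induced Cre to delete the gene in the Dnmt1 KO cells, while control cells kept it. The methods of the study do not state whether the control cells of these libraries were given tamoxifen. If they were not, deletion, tamoxifen and Cre activity cannot be told apart in the genotype comparisons. The time course holds 3 libraries each of control and Dnmt1 KO cells on days 1, 3, 6, 9, 11 and 25 of induction, 36 in all. A further 30 time course libraries carry an R1 suffix. The series also holds 8 AGO2 immunoprecipitation libraries (4 control, 4 Dnmt1 KO) and 2 libraries labelled none (1 of each genotype). The methods of the study name a negative control for the AGO2 precipitation, with beads and extract but no serum. Whether the libraries labelled none are that control is not stated in the sources used here. A further 7 libraries are of primordial germ cells (PGCs) sorted from Oct4-GFP embryos of the C57BL/6J strain (C57BL/6 in the labels) at E13.5 and E14.5. The ESCs were one line grown in serum and LIF with or without feeder cells, the labels do not say whether the 3 libraries of a group came from separate cultures, and p-values then measure only the spread between these libraries.

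C/D box snoRNAs are short nuclear RNAs that carry a box C near the 5′ end and a box D near the 3′ end, are bound by Fibrillarin, Nop56, Nop58 and Snu13, and guide 2′-O-methylation of ribosomal RNA. A few, such as U8, U13, U14 and U22, also or only act on the folding, cleavage or acetylation of the ribosomal RNA precursor. In mammals most are cut out of introns of genes that encode ribosomal or nucleolar proteins or of noncoding hosts such as Gas5 and Snhg1, and pieces of them are regularly recovered in small RNA libraries. The reads counted here were 20 to 24 nt long, so each value is the level of short fragments that overlap a snoRNA, not of the whole snoRNA.

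The sequences of 8 members that the results turn on are given below from the NCBIM37 genome on the sense strand, with TGATGA in capitals where it lies within the first 20 bases (core of box C) and CTGA in capitals where it lies within the last 20 (box D).
SNORD44, the most abundant member, chr1:162966813-162966872, + strand: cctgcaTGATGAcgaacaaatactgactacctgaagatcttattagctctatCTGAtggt
Snord118, the U8 snoRNA, chr11:68886929-68887063, + strand: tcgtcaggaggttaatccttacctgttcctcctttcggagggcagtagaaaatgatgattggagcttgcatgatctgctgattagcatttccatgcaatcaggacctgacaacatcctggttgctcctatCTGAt
Snord104, chr11:106362307-106362376, + strand: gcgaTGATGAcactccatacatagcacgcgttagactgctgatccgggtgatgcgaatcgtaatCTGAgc
SNORD20, chr1:88248583-88248662, - strand: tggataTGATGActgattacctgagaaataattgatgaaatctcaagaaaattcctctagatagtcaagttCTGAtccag
Snord64, chr7:67123694-67123760, - strand: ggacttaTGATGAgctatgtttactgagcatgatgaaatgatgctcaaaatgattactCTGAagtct
SNORD107, chr7:67125762-67125831, - strand: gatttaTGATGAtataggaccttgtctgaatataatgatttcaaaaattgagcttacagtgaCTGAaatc
SNORD28, chr19:8799358-8799433, + strand: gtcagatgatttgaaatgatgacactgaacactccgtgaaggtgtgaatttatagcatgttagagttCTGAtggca
Snord2, chr16:23109026-23109094, + strand: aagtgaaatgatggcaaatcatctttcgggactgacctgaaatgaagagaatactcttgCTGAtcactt

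The box letters marked the members as a class. CTGA lay within the last 20 bases of 123 of the 125 members (98.4%), TGATGA within the first 20 of 77 (61.6%), and both were present in 76 (60.8%). In windows of the same length and strand starting 1000 bases past the end of each member, the same search found CTGA in 15.2%, TGATGA in 0.8% and both in 0.8%. Rows named for H/ACA box and small Cajal body RNAs (1074 rows) held CTGA in 11.27%, TGATGA in 1.02% and both in 0.652%. The 203 Snord rows below the level held both in 78.3%, so the exact letters did not separate members from the quieter rows, and their presence is a description of the row and not of its fragments. Members were 60 to 4094 bases long with a median of 76, and 123 of them were at most 150 bases.

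By the GENCODE annotation of the same build, 117 members lay inside a gene on their own strand (64 wholly in introns and 53 overlapping an annotated exon of some transcript) and 8 in none. The 117 include both Snord123 rows, whose host by that annotation is a gene also named Snord123. The longer of these rows, of 4094 bases, contains the one of 71 bases, so reads on the shorter row count for both. Gas5 held 9 members, Snhg1 8, Rpl4 5, and Rpl7a, Rpl13a, Nop58 and 2410002F23Rik 4 each. The 8 members without a host on their strand were Snord118, Snord13, Snord104, Snord64, SNORD107, SNORD93, Snord7 and SNORD60. Of the 125, 44 had no run of 20 bases that occurs elsewhere in the genome, 14 had over 25% of such runs elsewhere and 7 had over 50%. The share was 38.8% for Snord118, 25.9% for Snord13, 61.5% for SNORD93 and 0 for Snord104, Snord64 and SNORD107, and reads from the repeated stretches cannot be given to one locus. Rows of host genes also count reads of the snoRNAs inside them.

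Library depth differed between the groups and sets the precision of each value. The 30 libraries of days 1 to 11 held 870481 to 6239009 reads and the 6 of day 25 held 521066 to 815523. Dnmt1 itself was covered only by scattered short reads, at 23.1 to 95 RPM in the 18 control and 18.1 to 64.3 RPM in the 18 Dnmt1 KO libraries, ranges that overlap, so these libraries give no check of the deletion. The 7 rows of the miR-290 cluster, which marks ESCs, summed to 110501 to 208803 RPM across the 36 libraries. That sum separated the genotypes on every day, higher in Dnmt1 KO on days 1, 3 and 6 and lower on days 9, 11 and 25. A list of 6 fibroblast miRNA rows, the cell type of feeder layers, summed to 6923 to 48042 RPM, nearly all of it Mir21 and Mir143, with Mir199a-1 at 0 in every library and Mir199a-2 at most 41.1 RPM. That sum was higher in Dnmt1 KO than in control cells on days 3, 6, 9 and 11, without overlap, and on day 25 its rows moved in different directions. The values of both lists are given beside those results.

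C/D box fragments made up a large part of every time course library. The 125 members held at most 20.5% of the reads in the 36 libraries, with a median of 17.0% and a low of 14.0% in control and 13.502% in Dnmt1 KO libraries. The 1074 H/ACA and small Cajal body RNA rows together held 0.337% to 0.667%. Of the members, 118 reached 10 RPM in all 36 libraries, and all 125 met the level rule in control and in Dnmt1 KO libraries taken alone. The members just inside the level were Snord89 and SNORD62, whose values ranking at the third place among the 36 were 13.1 and 14.0 RPM, and the rows just outside were SNORD63 and SNORD125 at 6.11 and 5.76 RPM.

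The distribution over members was steep. SNORD44, a guide to the small subunit rRNA that lies in Gas5, averaged 29729 RPM and held 10.2% to 18.5% of all member RPM in the libraries of days 1 to 11. The other 9 of the 10 most abundant averaged 4882 to 11642 RPM. They were the SNORD58 copies at chromosome 18 starts 75161534 (11642 RPM) and 75161109 (5605 RPM) in Rpl17, SNORD81 in Gas5 (8702 RPM), Snord12 in 1500012F01Rik (6471 RPM), SNORD30 and SNORD29 in Snhg1 (6348 and 5832 RPM), Snord49a in 2410006H16Rik (5010 RPM), Snord2 in Eif4a2 (4974 RPM) and Snord99 in Snhg12 (4882 RPM). Together the 10 highest members of a library held 48.7% to 68.1% of its member RPM, and 4 to 11 members were enough to reach 50%. At the other end, 25 members averaged under 100 RPM.

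**Figure D1:**
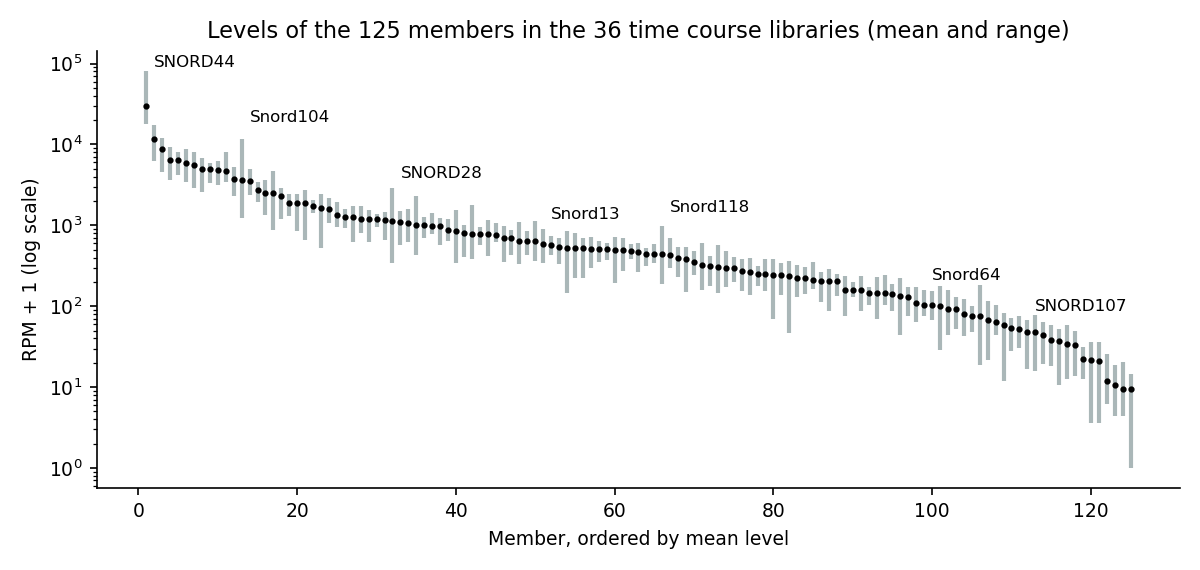
The horizontal axis orders the 125 members by mean level and the vertical axis gives RPM + 1 on a log scale, with points for the mean and bars for the lowest to highest of the 36 time course libraries. SNORD44 stands at the top with a mean of 29729 RPM, and Snord104 and SNORD28 have wider bars than their neighbours.

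On day 1 the summed level did not separate the genotypes, and 16 members were called between them. The called set is defined throughout by an adjusted p under 0.05 in limma over 2582 features. The member share was 15.3% ± 1.17 (SD, n = 3) in control and 16.0% ± 0.779 (SD, n = 3) in Dnmt1 KO libraries. Of the 125 members 12 were higher in Dnmt1 KO and 4 lower, 12.8% of them, while 3.95% of all features tested were called, 2.94% higher and 1.01% lower. With library totals as the only scaling the split was 17 higher and 2 lower. The miR-290 cluster summed to 115767 to 122811 RPM in control and 127582 to 132059 RPM in KO libraries on this day, and its part was not tested.

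Of the 5 members in Rpl4, a large subunit ribosomal protein gene, 4 were higher on day 1, at log2 fold changes of 0.02 to 0.80 over the 5, a group singled out after its values were seen. The other leading changes came from different hosts. SNORD28, a guide to the small subunit rRNA that lies in Snhg1, was at 551, 448 and 340 RPM in control and 869, 699 and 685 RPM in Dnmt1 KO libraries. All KO libraries lay above all controls, a log2 fold change of 0.68 ± 0.11 (SE). This is a description, since SNORD28 was chosen for a rise in control cells from day 1 to day 25 and the same control libraries enter here. SNORD18 at start 64024930, a large subunit guide in Rpl4, was at 195, 162 and 147 RPM in control and 381, 271 and 235 RPM in KO libraries (log2 0.70 ± 0.12, adjusted p = 0.00013). SNORD11 at start 59761102, in an intron of Nop58, was at 50.9, 42.9 and 27.6 RPM against 87.2, 67.3 and 67.2 RPM (log2 0.80 ± 0.16, adjusted p = 0.0022). The other named increase was Snord65. The 4 lower members were Snord49a, SNORD31, SNORD93 and SNORD12 at start 166888973, of which Snord49a was at 6608, 6711 and 6385 RPM in control and 5335, 5658 and 5878 RPM in KO libraries (log2 -0.32 ± 0.09, adjusted p = 0.029, not called with library totals). The count fell to 3 without control replicate 3 and to 4 without KO replicate 1 of that day.

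On day 3 only Snord13 and Snord118 were called, both lower in Dnmt1 KO cells, 1.6% of members against 6.47% of all features tested (4.8% higher and 1.67% lower). Both act on the rRNA precursor. Snord13, the U13 snoRNA, was at 810, 730 and 757 RPM in control and 346, 599 and 580 RPM in KO libraries (log2 -0.60 ± 0.13, adjusted p = 0.0018). Snord118 was at 589, 559 and 549 RPM in control and 413, 488 and 433 RPM in KO libraries (log2 -0.32 ± 0.10, adjusted p = 0.040). In each the KO libraries lay below all controls, but without KO replicate 1 neither was called. The fibroblast list summed to 22849 to 23327 RPM in control and 34068 to 44691 RPM in KO libraries on this day, and the miR-290 cluster to 118457 to 125419 RPM and 129152 to 134859 RPM. Their part in these changes was not tested.

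On days 6 and 9 the members leaned lower in Dnmt1 KO cells. On day 6, 48 members were lower and 0 higher, 38.4% of members, where 23% of all features tested were called, 13.2% higher and 9.72% lower. The median log2 fold change was -0.28 over the members and 0.13 over all features, and 115 of 125 members were negative. On day 9, 36 were lower and 1 higher, or 29.6%, where 18.2% of all features were called, 11.7% higher and 6.47% lower, with medians of -0.23 and 0.07. Of the members, 25 were called lower on both days, a description, since the same count over all features is not given here. The summed share was 17.6% ± 0.481 in control and 16.3% ± 0.954 in KO libraries on day 6 and 16.8% ± 0.962 against 14.2% ± 0.960 on day 9 (SD, n = 3 each).

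The size of the day 6 and day 9 counts moved with the scaling. On day 6 it was 24 with library totals, 1 of them higher, and 79 with median-ratio factors, and on day 9 it was 58 and 45. Library totals moved the median of all features on day 6 to 0.23, with that of the members at -0.16. The fibroblast list summed to 14591 to 15764 RPM in control and 23731 to 26048 RPM in KO libraries on day 6, and to 21896 to 29196 RPM against 42346 to 48042 RPM on day 9. The miR-290 cluster summed to 110501 to 114233 RPM in control and 130346 to 139059 RPM in KO libraries on day 6, and to 119469 to 126306 RPM against 111121 to 112454 RPM on day 9. Their part in the lower member levels was not tested, and in such bulk libraries fewer cells of a type and less RNA in each cell cannot be told apart.

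Snord118, Snord13 and Snord104 were among the leading decreases on these days. Snord118 was at 452, 436 and 494 RPM in control and 301, 294 and 330 RPM in KO libraries on day 6 (log2 -0.69 ± 0.10, adjusted p = 3.6e-07). On day 9 it was at 441, 460 and 475 RPM against 239, 293 and 271 RPM (log2 -0.68 ± 0.10, adjusted p = 5e-07). On both days the groups were apart by more than their own ranges. Snord13 was at 558, 629 and 730 RPM in control and 394, 402 and 459 RPM in KO libraries on day 6 (log2 -0.72 ± 0.13, adjusted p = 3.3e-05). On day 9 its values were 805, 833 and 869 RPM against 370, 470 and 349 RPM (log2 -0.99 ± 0.13, adjusted p = 7.3e-08), the lowest fold change of any member on that day.

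Snord104 guides methylation of the large subunit rRNA. It was at 3673, 3440 and 3954 RPM in control and 2809, 2604 and 2831 RPM in KO libraries on day 6 (log2 -0.54 ± 0.09, adjusted p = 1.7e-05), and at 2416, 2394 and 2851 RPM against 1779, 1975 and 1965 RPM on day 9 (log2 -0.32 ± 0.09, adjusted p = 0.011). The KO libraries lay below the controls on both days. SNORD88 at start 51505820 was also lower on both days, with log2 fold changes of -0.52 ± 0.09 and -0.42 ± 0.09 (adjusted p = 1.7e-05 and 0.00055). SNORD73 at start 85944540, in Rps3a, and SNORD20, a small subunit guide in an intron of Ncl, were the other named decreases of day 9, at log2 -0.62 ± 0.13 and -0.51 ± 0.11 (adjusted p = 0.00042 for both).

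The single increase of day 9 was Snord64, which lies in the imprinted Snrpn region of chromosome 7 and has no known rRNA target. It was at 96.2, 101 and 103 RPM in control and 121, 121 and 137 RPM in KO libraries, without overlap (log2 0.43 ± 0.14, adjusted p = 0.032). It was no longer called with either other scaling, without any 1 of 5 of the 6 libraries, or without a filter on low values.

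**Figure D2:**
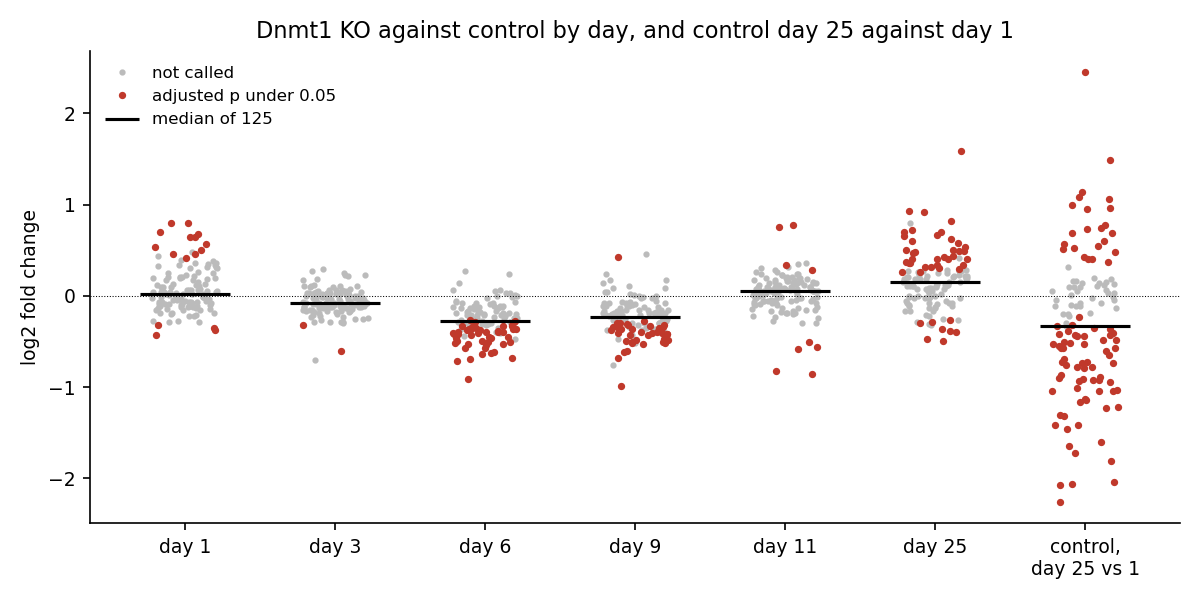
The vertical axis gives the log2 fold change of each of the 125 members for Dnmt1 KO against control on each day and, at the right, for control cells on day 25 against day 1. Points called at an adjusted p under 0.05 are red and black lines mark medians, which lie at -0.28 on day 6, -0.23 on day 9 and 0.16 on day 25.

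On day 11, 9 members were called between the genotypes. The summed member shares overlapped, at 17.7% ± 0.587 (SD, n = 3) in control and 17.0% ± 0.176 (SD, n = 3) in KO libraries. Of the members 4 were higher and 5 lower, 7.2%, a share near the 8.75% of all features that were called (6.97% higher and 1.78% lower). With library totals 2 were higher and 6 lower. The member median of 0.05 turned to -0.06 under that scaling, and all features had a median of -0.02 before and -0.13 after it.

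Snord118 and Snord104 were picked for description because they led the decreases of this day in earlier results of these data, so their day 11 values are given as a description. Snord118 was at 968, 968 and 889 RPM in control and 423, 508 and 510 RPM in KO libraries (log2 -0.86 ± 0.10 SE). Snord104 was at 11708, 10339 and 8943 RPM in control and 4959, 5691 and 5389 RPM in KO libraries (log2 -0.83 ± 0.09 SE). In both, the control libraries of day 11 were the highest of all 36, and no control library of another day passed 3954 RPM for Snord104 or 589 RPM for Snord118.

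The other lower members were Snord13, SNORD20 and SNORD94, which guides modification of the U6 spliceosomal RNA. Snord13 was at 865, 908 and 875 RPM in control and 524, 538 and 594 RPM in KO libraries (log2 -0.56 ± 0.13, adjusted p = 0.0017). SNORD20 was at 568, 597 and 583 RPM against 364, 366 and 404 RPM (log2 -0.51 ± 0.11, adjusted p = 0.00078). SNORD94 was at 160, 161 and 182 RPM against 98.2 to 110 RPM (log2 -0.58 ± 0.14, adjusted p = 0.0023). None of the 5 lower members had overlapping groups, a description, since the same count over all features is not given here. The fibroblast list summed to 18575 to 20498 RPM in control and 22799 to 25851 RPM in KO libraries on this day, and the miR-290 cluster to 125999 to 128558 RPM and 110644 to 118488 RPM. Their part in these changes was not tested.

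Both members from the Snrpn region were higher in Dnmt1 KO than in control cells on day 11. Snord64 was at 76.8, 80.6 and 91.9 RPM in control and 142, 121 and 126 RPM in KO libraries (log2 0.75 ± 0.14, adjusted p = 0.00017). SNORD107, from the same region, was at 33.9, 32.7 and 37.9 RPM against 56.7, 56.5 and 53.6 RPM (log2 0.78 ± 0.18, adjusted p = 0.0023). In both, all KO libraries lay above all controls. The contrast compares genotypes within 1 day and does not show a rise over time in KO cells. In control cells both were lower on day 25 than on day 1, at log2 -0.42 ± 0.14 for Snord64 and -1.81 ± 0.18 for SNORD107 (limma, adjusted p = 0.014 and 4.3e-11). The 2 other increases were smaller, with Snord2 at log2 0.33 ± 0.10 (adjusted p = 0.018, not called with library totals) and SNORD101 in Rps12 at log2 0.29 ± 0.09 (adjusted p = 0.026). Of the 8 members that lie in no gene on their strand, 5 were called on day 11 (62.5%), and of the 117 inside a gene 4 were called (3.42%). Of all features tested 8.75% were called. The 5 include Snord118 and Snord104, which were picked for their day 11 values, so these counts are a description. The other members of the imprinted list, the many copies of Snord115 and Snord116, were below the level here, since 2 of 166 rows on that list were tested.

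**Figure D3:**
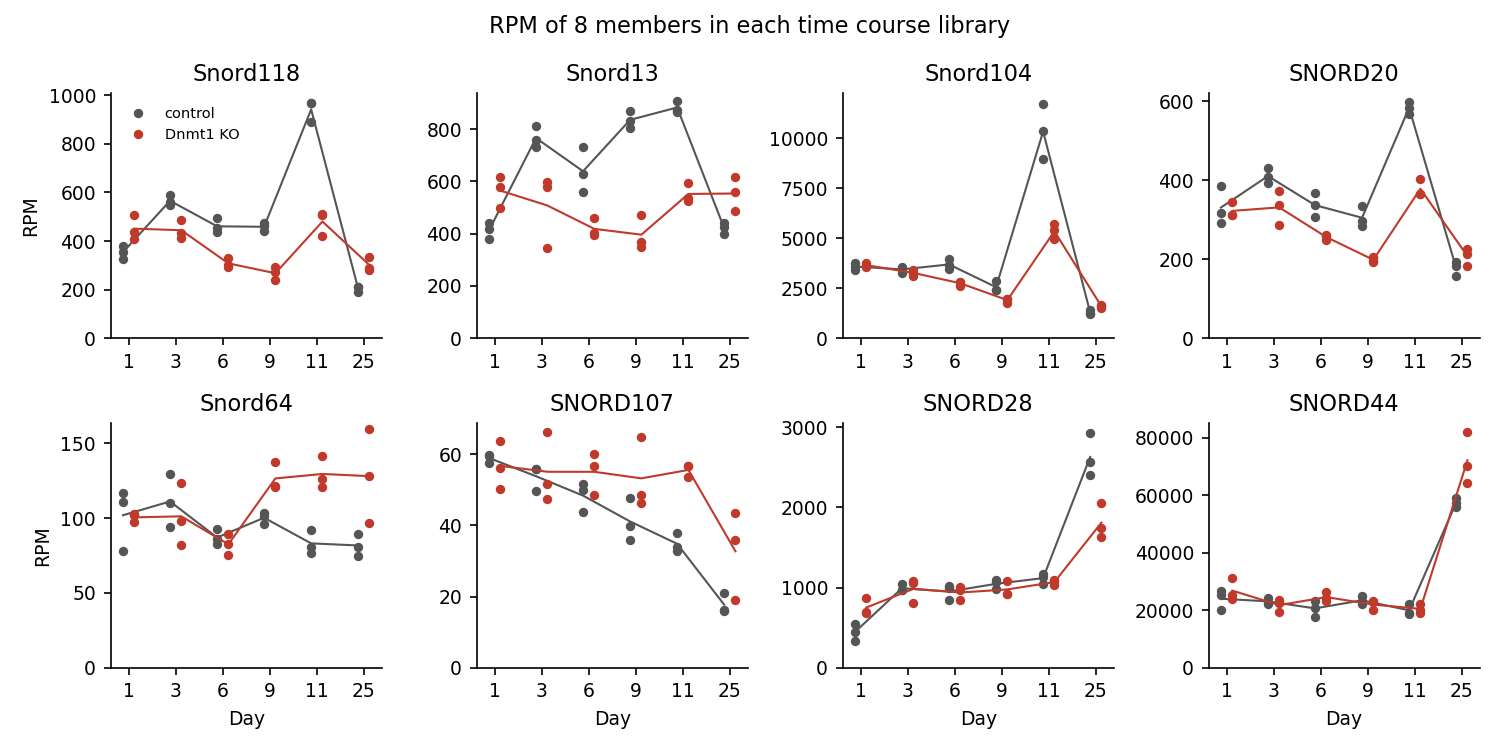
Each panel plots RPM (axis from 0) of 1 member against day, in equal steps and not to the scale of time, with a point for each control (grey) and Dnmt1 KO (red) library and lines through the means of 3. Snord118, Snord13, Snord104 and SNORD20 run lower in Dnmt1 KO cells on days 6 to 11, Snord64 and SNORD107 run higher on days 11 and 25, and SNORD28 and SNORD44 step up on day 25 in both genotypes.

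By day 25 the direction had turned for many members. Of the 125, 36 were higher in Dnmt1 KO cells and 8 lower, 35.2%, close to the 35.7% of all features that were called, while 28.8% of members were called higher and 6.4% lower, where 15.5% and 20.2% of all features were. The member share was 17.0% ± 1.28 (SD, n = 3) in control and 19.6% ± 0.790 (SD, n = 3) in KO libraries, which did not overlap. The member median was 0.16 and that of all features -0.07. The miR-290 cluster rows summed to 175306 to 208803 RPM in control and 136240 to 141175 RPM in KO libraries, and since all values are shares of a library, their part in the higher member shares was not tested. The fibroblast list summed to 8945 to 10081 RPM in control and 6923 to 8020 RPM in KO libraries, a decrease carried by Mir21, while the other 5 rows summed to 954 to 1050 RPM in control and 1247 to 1292 RPM in KO libraries. Their part was not tested either.

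The Gas5 snoRNAs stood higher in Dnmt1 KO than in control cells on day 25. All 9 members inside Gas5, a growth-arrest noncoding RNA whose introns carry snoRNAs, were called higher, with log2 fold changes of 0.36 to 0.70 and a median of 0.49, and so were all 9 with library totals, median-ratio factors and voom, and 7 of 9 without a filter on low values. SNORD44 was at 59123, 55943 and 57255 RPM in control and 64437, 70158 and 81927 RPM in KO libraries (log2 0.37 ± 0.11, adjusted p = 0.0063). SNORD77 was at 452, 487 and 434 RPM against 725, 684 and 652 RPM (log2 0.63 ± 0.09, adjusted p = 3.1e-07). SNORD79 was at 525, 497 and 738 RPM against 1109, 865 and 783 RPM (log2 0.70 ± 0.12, adjusted p = 7.1e-06). In these 3 the KO libraries lay above all controls. The Gas5 row, which includes reads of these snoRNAs, was higher in KO libraries by 0.39 on the log2 scale (adjusted p = 0.0011). On day 6, 3 of the same 9 had been called lower and 0 higher, a count that was 0 with library totals and 6 with median-ratio factors.

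The 4 members inside Nop58, which encodes a core protein of C/D box particles, were also all higher on day 25, at log2 0.41 to 0.92, a group singled out after its values were seen. Of these, 3 were still called with library totals. Snord11 at start 59761634 was at 138, 167 and 212 RPM in control and 288, 259 and 271 RPM in KO libraries (log2 0.72 ± 0.11, adjusted p = 2e-06). SNORD11 was at 64.5, 96.0 and 95.6 RPM against 175, 120 and 178 RPM (log2 0.92 ± 0.16, adjusted p = 2.1e-05). The Nop58 row was higher in KO libraries by log2 0.65 (adjusted p = 7.8e-07), again with snoRNA reads included, and Nop56 was at log2 0.15 (adjusted p = 0.19).

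In other hosts with at least 4 members, fewer were called. Of the 8 members in Snhg1, 1 was higher and 2 lower on day 25, of the 5 in Rpl4 and the 4 in Rpl13a 0 were called, of the 4 in Rpl7a 1 was higher and 1 lower, and of the 4 in 2410002F23Rik 2 were lower. SNORD28 was at 2402, 2560 and 2921 RPM in control and 2050, 1743 and 1635 RPM in KO libraries on day 25 (log2 -0.50 ± 0.11 SE), again a description that uses the controls it was chosen on. SNORD36 at start 26768050, in Rpl7a, was at 342, 347 and 292 RPM against 222, 232 and 229 RPM (log2 -0.47 ± 0.10, adjusted p = 0.00037). SNORD88 at start 51505820 was again lower (log2 -0.38 ± 0.09, adjusted p = 0.00092), and Snord15a was the other named decrease. Of the 12 host genes on the list, 2 were higher and 1 lower on day 25, the lower being Snhg5 at -0.83 (adjusted p = 0.00068).

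Snord118, Snord13 and Snord104, lower on days 6 to 11, stood higher in KO cells on day 25. Snord118 was at 210, 190 and 211 RPM in control and 333, 289 and 280 RPM in KO libraries (log2 0.60 ± 0.10, adjusted p = 4e-06). Snord13 was at 425, 399 and 440 RPM against 616, 558 and 487 RPM (log2 0.43 ± 0.13, adjusted p = 0.0076). Snord104 was at 1223, 1267 and 1392 RPM against 1685, 1597 and 1497 RPM (log2 0.34 ± 0.09, adjusted p = 0.0033). None of these groups overlapped, again a description without a count over all features. The difference between the genotype effects of days 25 and 11 was fitted in the same model (23 members called, 18 positive and 5 negative, where 20.8% of all features were called, 8.52% positive and 12.3% negative). It was 1.46 ± 0.14 for Snord118, 0.99 ± 0.18 for Snord13 and 1.17 ± 0.13 for Snord104 on the log2 scale (SE), given as a description because these members were named for their day 11 values, which enter the difference. For Snord64 and SNORD107, both still higher on day 25 at log2 0.66 ± 0.14 and 0.82 ± 0.18, that difference was -0.09 ± 0.20 and 0.05 ± 0.26 (SE), also as a description. SNORD107 was at 16.1, 21.1 and 15.9 RPM in control and 43.4, 35.9 and 19.0 RPM in KO libraries on day 25, where 1 KO library lay within the control range. Snord89 had the most positive fitted value of day 25 but held at most 3 reads in each control library, so no fold is given for it.

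Averaged over the 6 days, 28 members were lower and 6 higher in Dnmt1 KO cells, 27.2% where 26.1% of all features were called, 10.5% lower and 15.7% higher. Snord13 (log2 -0.35 ± 0.05), Snord118 (-0.28 ± 0.04) and Snord104 (-0.24 ± 0.04) were among the lower. SNORD107 (0.34 ± 0.07), Snord64 (0.24 ± 0.06), Snord99 and SNORD78 were among the higher. The average includes the day 11 values for which Snord118 and Snord104 were picked, so the values of these 2 members are a description. Of the proteins of C/D box particles, Nop58 and Nop56 were tested, and 1 of them was called lower on day 6, 1 lower on day 9 and 1 higher on day 25. Of 70 H/ACA and small Cajal body RNA rows tested, the other large snoRNA class, 10 were higher and 0 lower on day 1, 2 higher and 0 lower on day 3, 11 lower and 0 higher on day 6, 10 lower and 1 higher on day 9, 3 lower and 0 higher on day 11 and 7 each way on day 25. These were 14.3%, 2.86%, 15.7%, 15.7%, 4.29% and 20% of the 70, where 3.95%, 6.47%, 23%, 18.2%, 8.75% and 35.7% of all features were called. Because 24 members were called both ways on different days, the average over the days hides their course. In all, 89 members were called on at least 1 day and 36 on none. The same counts over all features are not given here, so these are a description. Of the 7 precursor-processing members, 2 were called lower on days 3, 6 and 11, 3 on day 9, and 2 higher on day 25. The called ones were Snord118 and Snord13 throughout, joined by Snord22 on day 9, and the U14 copies (Snord14a, Snord14c, Snord14d and Snord14e) were called on no day.

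More members were called between time points of the control cells than between genotypes on any day, a contrast that was not itself tested. In control cells 87 members differed between day 25 and day 1, 23 higher and 64 lower, 69.6% where 51% of all features tested were called, 22.9% higher and 28% lower. The median was -0.32 over members and -0.04 over all features (-0.20 and 0.08 with library totals). Of the called members 28 passed 1 on the log2 scale, against 1 in the genotype comparison of day 25 and 0 in those of the other days. These counts are a description, since those over all features are not given here. Day 25 libraries were shallower than those of day 1, and day and sequencing depth cannot be told apart. In the same control libraries the fibroblast list fell from 18772 to 20983 RPM on day 1 to 8945 to 10081 RPM on day 25, with Mir143 going from 8944 to 11099 RPM to 896 to 1009 RPM, while the miR-290 cluster went from 115767 to 122811 RPM to 175306 to 208803 RPM. Their part in the member changes was not tested.

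SNORD28 was chosen for its rise in this comparison, so its values are a description. It climbed from 551, 448 and 340 RPM on day 1 to 2402, 2560 and 2921 RPM on day 25 in control cells (log2 2.45 ± 0.11), with 843 to 1175 RPM in the 12 control libraries between. SNORD51, a large subunit guide in Eef1b2, rose from 539, 550 and 433 RPM to 1348, 1412 and 1931 RPM (log2 1.48 ± 0.13, adjusted p = 7.4e-13). SNORD44 rose from 26716, 25245 and 20183 RPM to 59123, 55943 and 57255 RPM (log2 1.14 ± 0.11, adjusted p = 6.6e-12). On day 25 SNORD44 alone held 31.1% to 40.0% of all member RPM. SNORD18 at start 64024930 was the other named increase, at log2 1.06 ± 0.12 (adjusted p = 3.8e-10).

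Neighbours of these members in the same hosts went the other way. SNORD26, which shares Snhg1 with SNORD28, fell from 1674, 1726 and 1758 RPM to 572, 520 and 717 RPM (log2 -1.65 ± 0.09, adjusted p = 1.7e-18). SNORD81, which shares Gas5 with SNORD44, fell from 11356, 12044 and 9071 RPM to 5443, 4564 and 5154 RPM (log2 -1.22 ± 0.10, adjusted p = 5.4e-13). In both pairs the libraries of the days did not overlap. Of the 8 Snhg1 members 2 were higher and 5 lower, and of the 9 Gas5 members 2 were higher and 4 lower. SNORD102 in Rpl21, SNORD93 and Snord104 were the other named decreases, at log2 -2.04 ± 0.11, -2.07 ± 0.13 and -1.60 ± 0.09 (adjusted p = 1.8e-19, 2.5e-17 and 4.2e-18). The day 1 and day 25 genotype comparisons share these control libraries.

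Members were nearly absent from AGO2-bound RNA. They held 0.00851% to 0.0211% of reads in the 4 AGO2 control libraries and 0.0127% to 0.0293% in the 4 AGO2 Dnmt1 KO libraries, which are 1152390 to 25423038 reads deep, while miRNAs held 97.9% to 99.1%. For 124 of 125 members every AGO2 control library lay below every one of the 18 control time course libraries, and for 0 above. Of all features tested 78.6% lay below and 4.07% above in the same way. Members and features were admitted by their level in the time course libraries alone, which favours lying below, so both counts are a description. The exception was Snord89, which had a control library at 0. For the 57 members with over 3 reads in each AGO2 control library, the median level was 144 to 7733 times lower than in the time course controls, with a median of 1090 times.

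SNORD44 was again the highest member in AGO2, at 38.1, 21.0, 19.3 and 55.0 RPM in control and 78.1, 76.6, 32.6 and 42.2 RPM in KO libraries, against a median of 23087 RPM in the time course controls. Snord104 was next by mean, at 5.14, 3.13, 3.15 and 12 RPM in the AGO2 control libraries. SNORD44 was the only member with enough reads for the genotype test, and it was not called by limma (log2 0.55 ± 0.41 SE, adjusted p = 0.34, unadjusted p = 0.22), where 36.4% of the 456 features tested were. The other members were at most 12.9 RPM in any AGO2 library, the value of SNORD75 in 1 KO library. The 2 libraries labelled none held 57155 and 9830 reads, of which 2.96% and 2.81% lay on members, shares that rest on 1694 and 276 reads.

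**Figure D4:**
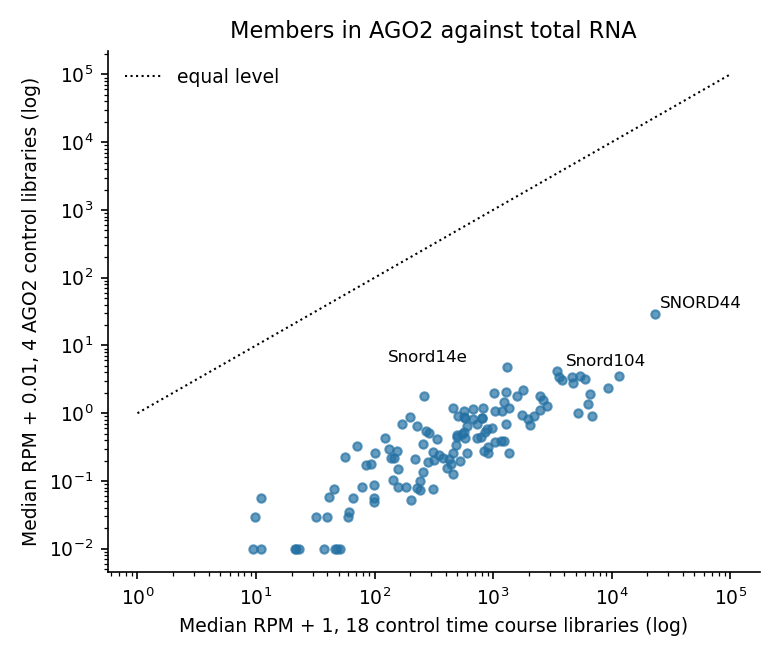
Each point is 1 of the 125 members, with its median RPM + 1 in the 18 control time course libraries on the horizontal and its median RPM + 0.01 in the 4 AGO2 control libraries on the vertical log axis. All points lie below the dotted line of equal level, and SNORD44 is the highest on both axes.

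In the 4 PGC libraries without the R1 suffix the member share lay above that of all control ESC libraries (at most 18.4%), with 1 library for each stage and sex and hence no test. It was 20.4% and 18.7% in E13.5 female and male PGCs and 32.1% and 28.7% in E14.5 female and male PGCs, from 1734576 to 3435993 reads. The Dnmt1 KO libraries of day 25 were at 18.9%, 19.5% and 20.5%, so the E13.5 shares did not pass all ESC libraries. The higher share at E14.5 was carried by SNORD44, which held 59.1% and 54.3% of member RPM there and 20.6% and 24.2% at E13.5. Without SNORD44 the members held 16.2% and 14.2% of reads at E13.5, and 13.1% in each E14.5 library. Snord118 was at 2419 and 1133 RPM at E13.5 and at 950 and 1023 RPM at E14.5 (female, then male), and Snord64 was at 189 to 253 RPM, all above the 159 RPM that is its highest ESC value. The library labelled as E14.5 male with the R1 suffix went against its name. Over the members its log2(RPM + 1) values correlated with Pearson's r = 0.996 with the E13.5 male library and 0.967 with the E14.5 male library, as a description over 125 rows of the same libraries, and it held 24.2% of its member RPM on SNORD44. The R1-suffixed E13.5 libraries held lower member shares, 8.48% in the female library (114631 reads) and 1.02% in the male library (60317 reads).

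**Figure D5:**
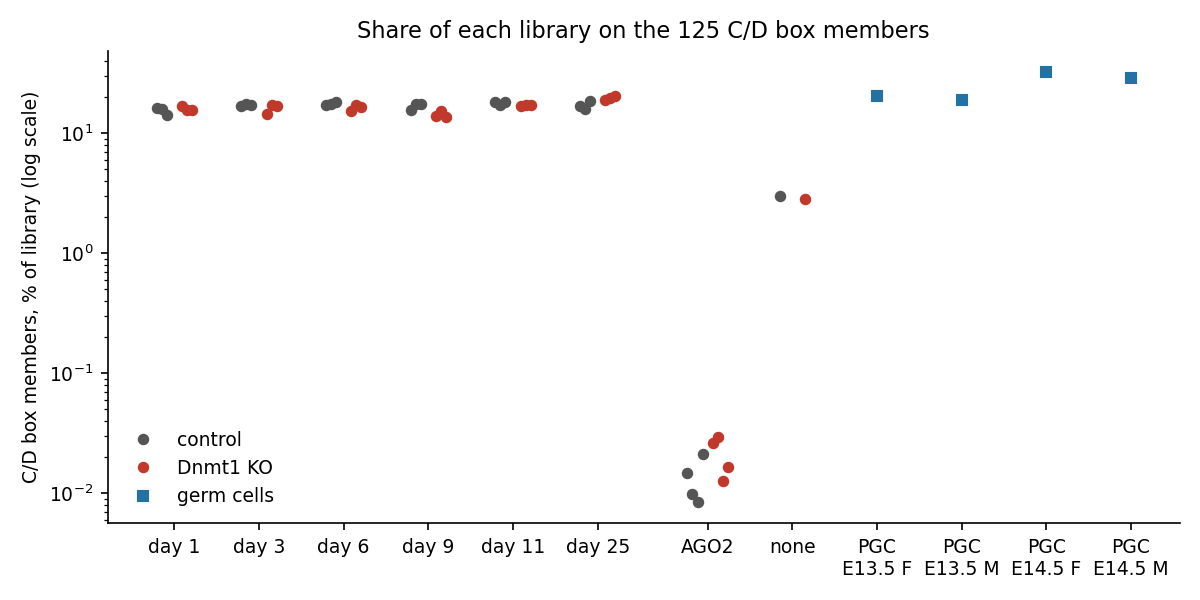
The vertical axis gives, on a log scale, the percent of each library's reads on the 125 members, with grey points for control, red points for Dnmt1 KO and blue squares for PGC libraries without the R1 suffix. The time course libraries reach at most 20.5% with a median of 17.0%, the AGO2 libraries near 0.01% and the E14.5 PGC libraries at 32.1% and 28.7%.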

How the data were processed

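The authors trimmed reads with Trim Galore 0.3.5, kept those of 20 to 24 nt, mapped them with Bowtie2 2.2.9 to NCBIM37 and deposited RPKM values per annotated feature, quantified by read overlap in SeqMonk; strand use is not stated. RPKM was turned into RPM by feature length. Whole reads were recovered from the RPM steps for 100% of values within a tolerance of 5% of a read, and were used for depth, the TMM weights and voom.

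Features with at least 10 RPM in at least 3 of 36 libraries were tested. log2(RPM + 1) after TMM scaling (trims of 30% and 5%) was fitted with limma 3.58.1 (R 4.3.3, trend), 1 mean per group, two-sided, Benjamini-Hochberg over all features; AGO2 was fitted apart. Fold changes are on that scale, which understates low rows; printed RPM are unscaled. The fit was tested on simulated data. RPM intervals cover counting error only. Groups follow sample titles, since genotype tags contradict titles for several R1-suffixed, AGO2 and none libraries.

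Named members are Snord104, Snord118 and SNORD28, the 10 most abundant, the 4 smallest adjusted p per direction and comparison, those at the level threshold, and list members called on 3 or more days. Members and lists were chosen with earlier results of these data known. Same-numbered AGO2 libraries deviated together (r = 0.206 to 0.387), but numbers 1 and 2 (0.240 and 0.364) and 3 and 4 (0.219 and 0.390) did so as well across genotypes, so the numbers may mark 2 sets rather than pairs. 1 named member and 1 sequence are not reported here.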

Additional observations from a re-analysis of the deposited data

Results flagged for a closer look

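For 12 of the named members the genotype effect of day 25 differed from that of day 11 in the fit of the difference (limma, adjusted p under 0.05, as for 23 of 125 members and 20.8% of all features tested). Most of the 12 were named for their values on day 11 or day 25, which enter the difference, so the values are a description and no independent test. The difference, day 25 minus day 11 on the log2 scale, was positive for Snord118 (1.46), SNORD11 (1.22), Snord104 (1.17), Snord13 (0.99), Snord11 (0.78), SNORD20 (0.77), SNORD79 (0.68) and SNORD77 (0.49). It was negative for SNORD36 at start 26768050 (-0.57), SNORD28 (-0.55), SNORD31 (-0.44) and SNORD88 at start 51505820 (-0.38). The groups of both days were sequenced to different depths.

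The 4 PGC libraries without the R1 suffix, which no tested comparison used, held a larger member share than any control time course library (highest 18.4%): 20.4% in E13.5 female, 18.7% in E13.5 male, 32.1% in E14.5 female and 28.7% in E14.5 male PGCs. Each is a single library, so the spread between animals is unknown. The E13.5 shares did not pass that of the highest Dnmt1 KO time course library, at 20.5% on day 25.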

How the results depend on the processing

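Without a filter on low values the counts of called members were 6 on day 1, 0 on day 3, 20 on day 6, 7 on day 9, 5 on day 11, 20 on day 25, 13 over all days and 3 in AGO2, where more features enter the adjustment. Day 6 gave 24 with library totals, 79 with median-ratio factors, 79 fitted alone and 15 in the R1-suffixed libraries. Day 9 gave 58 with library totals, 61 with voom, 66 alone and 16 in the R1-suffixed libraries. Day 11 gave 24 alone and 4 in the R1-suffixed libraries, and day 3 gave 1 with median-ratio factors and 0 alone. Since the R1-suffixed libraries may come from the same samples, their counts are no independent replication. The causes were not tested. Leaving out 1 library at a time gave 3 to 14 on day 1, 0 to 4 on day 3, 34 to 52 on day 6, 17 to 45 on day 9, 7 to 9 on day 11, 36 to 52 on day 25, 31 to 38 over all days, 82 to 86 for control day 25 against day 1 and 0 in AGO2. On day 3 the count was 0 without KO replicate 1, 4 without KO replicate 2 or 3 and 1 when any single control library was left out. The lowest day 9 count, 17, came without control replicate 2 and again without control replicate 3, and 20 and 23 remained without KO replicates 3 and 1. Of 54 named changes, none reversed in 954 refits, 882 kept their call and 72 lost it, 33 of these in leave-one-out fits.

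With the replicate number as a block the counts were 16, 2, 49, 41, 9, 46, 36, 87 and 0 in the same order, and all 54 named changes kept their call. Same-numbered time course libraries did not deviate together (r = -0.0649 to 0.0470), so there the numbers are not a pairing. The shallower day 25 libraries and rows with few reads, such as Snord89, limit what small changes can be seen.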
